A study of Homo sapiens with 9 samples.

Results

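The genes described here are 48 enzymes and enzyme regulators of amino acid breakdown outside the kynurenine route of tryptophan, taken by symbol from a table of 59452 gene rows. They fall into 7 groups: 19 for the branched-chain amino acids, 7 for tyrosine and its pterin cofactor, 3 for lysine, 4 for proline and arginine, 7 for glutamate, 3 for glycine and 5 for sulfur amino acids. All 48 symbols were found in the table, and 44 had enough counts to be tested.

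RNA was sequenced from MDA-MB-453, an established human breast cancer line labelled as triple-negative, with wild-type genotype, in 3 groups of 3 biological replicates. One group was grown attached and received DMSO as vehicle. The other groups were kept in forced suspension on poly-HEMA coated plates and received either DMSO or 10 µmol/L AT0174, a dual inhibitor of the tryptophan-degrading enzymes TDO2 and IDO1. All were taken at 48 hours. No attached group with AT0174 was analysed, so the inhibitor was compared with its vehicle in suspension only, and the 3 suspended vehicle libraries serve in both comparisons.

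The order of amino acid breakdown differs between routes. In several, the branched-chain and tyrosine routes among them, an aminotransferase removes the nitrogen first. Chains of dehydrogenases, hydratases and carboxylases, most of them in mitochondria, turn carbon skeletons into acetyl-CoA, succinyl-CoA or other intermediates of central metabolism. Proline, arginine and ornithine meet at glutamate, which glutamate dehydrogenase joins to the citric acid cycle, and sulfur released from cysteine is oxidised in steps to sulfite and sulfate. Several of these routes, among them tyrosine breakdown and the glycine cleavage system, are best known from liver.

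Libraries held between 36649997 and 48019126 estimated counts. Epithelial markers were abundant (EPCAM 297 to 338 and KRT8 875 to 955 CPM, counts scaled to the library size), ERBB2 was at 1029 to 1082 CPM, PGR had at most 18 counts, and the leukocyte markers PTPRC, CD3E and CD14 and the liver markers ALB, APOA1 and TTR had at most 11 counts in any library. COL1A1, listed as a fibroblast marker, was at 107 to 149 CPM, whereas COL3A1 had at most 1 count and PDGFRB at most 8. The sum of these 3 was 131 to 149 CPM in attached, 112 to 114 in suspended and 108 to 114 in AT0174 libraries, and its part in the results was not tested. Counts of the mitochondrial genome made up 7.56% to 9.32% of attached, 4.05% to 4.34% of suspended and 3.73% to 5.51% of AT0174 libraries. Attached replicate 3 had the highest share.

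TPM values, which divide reads by transcript length within a library, were used to compare enzymes with each other. AHCY, the hydrolase of S-adenosylhomocysteine in the methionine cycle, was at 250 ± 8.70 TPM in attached, 302 ± 9.32 in suspended and 288 ± 15.2 in AT0174-treated cells (mean ± SD, n = 3, as for every mean here). ALDH4A1, which oxidises the product of proline oxidation to glutamate, was at 234 ± 15.3, 275 ± 12.1 and 259 ± 8.77 TPM in the same order. PRODH, the proline oxidase of the preceding step, was at 298 ± 37.2, 220 ± 19.4 and 221 ± 35.3 TPM over all its transcripts, but its protein-coding transcripts held only 16.98 ± 0.729, 15.4 ± 2.02 and 15.4 ± 0.942 TPM. In attached libraries AHCY (240.4 to 257 TPM) and ALDH4A1 (219.6 to 250.0) overlapped.

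The other groups were led by ALDH7A1 in lysine breakdown (141 ± 7.97 TPM attached), the mitochondrial aspartate aminotransferase GOT2 in the glutamate group (150 ± 10.5), the carboxylase subunit MCCC2 of leucine breakdown (88.7 ± 4.02), the pterin dehydratase PCBD1 in the tyrosine group (84.6 ± 4.43) and the carrier protein GCSH of the glycine cleavage system (24.1 ± 2.69). At the low end of the tested members, the alanine aminotransferase GPT was at 0.226 ± 0.0449 TPM, the tyrosine aminotransferase TAT at 1.201 ± 0.165, the lysine entry enzyme AASS at 1.23 ± 0.269, the glycine cleavage aminomethyltransferase AMT at 1.71 ± 0.436 and the hydratase AUH at 3.56 ± 0.260 TPM. ARG2 (19.0 ± 1.29) and SUOX (26.4 ± 0.614) were the lowest of the proline and arginine group and of the tested sulfur group. Entry enzymes were among the scarcest transcripts for tyrosine and lysine, while the next enzyme listed for lysine was among the most abundant.

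The 4 members that could not be tested were at or near 0. BCAT1, the cytosolic branched-chain aminotransferase, had 0 counts in all 9 libraries, which allows up to 0.0625 to 0.0819 CPM per library for a count of 0 (3 counts of the library total, counting error only). HPD, which makes homogentisate from the product of TAT, had 0 to 2 counts, as did GLDC, the decarboxylase of the glycine cleavage system, and CDO1, the cysteine dioxygenase, had 1 to 4. Of 2 branched-chain aminotransferases only the mitochondrial BCAT2 was detected, and the routes of tyrosine, glycine and cysteine each had 1 listed enzyme at this floor while HGD, GCSH and SUOX of the same groups were read at 17.4 CPM or more in every library.

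**Figure D1:**
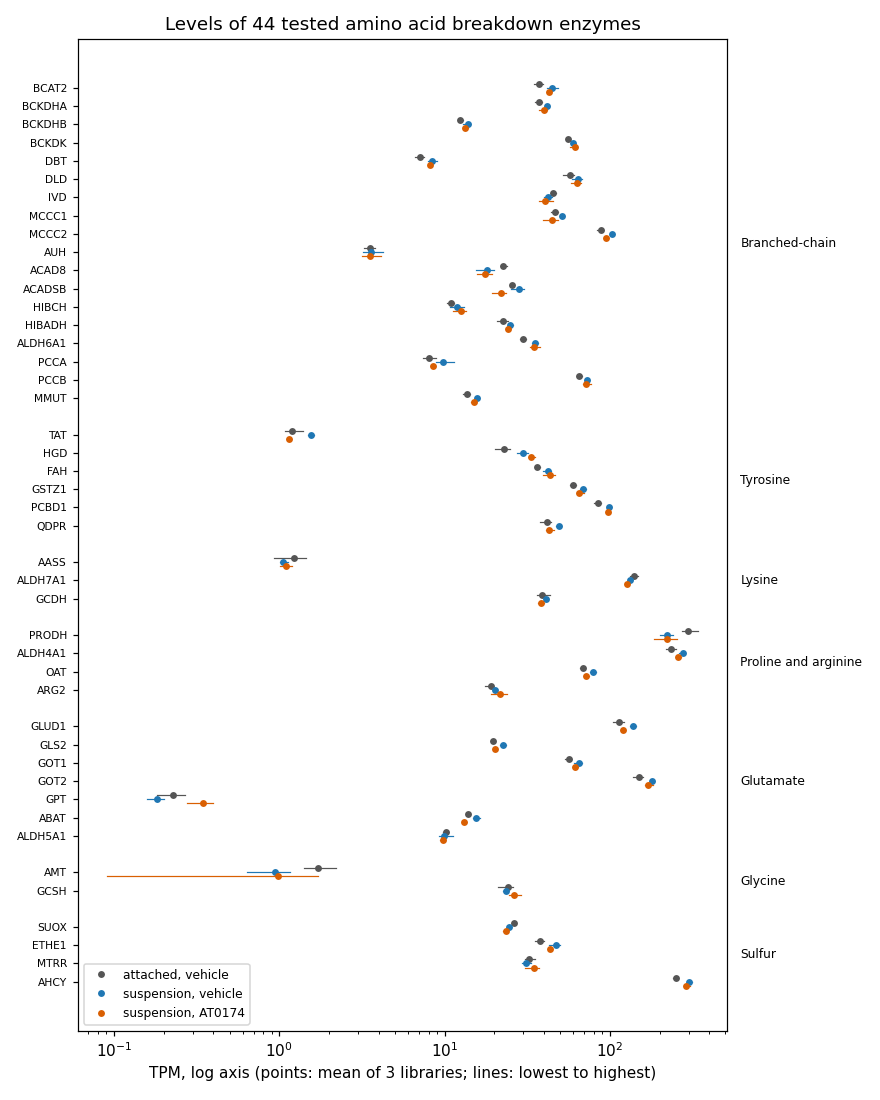
TPM of the 44 tested enzymes on a log axis, by group, with points for the mean of 3 libraries and lines from the lowest to the highest library. The levels span from GPT at 0.181 TPM to AHCY at 302 TPM in suspended cells, and the 3 conditions lie close together for most genes.

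Ratios of partner subunits, isozymes and other pairs of enzymes from the same group were taken within each library. On the log2 TPM scale BCKDHA exceeded BCKDHB, the other subunit of the branched-chain dehydrogenase E1 component, by 1.59 ± 0.06 in attached, 1.61 ± 0.09 in suspended and 1.57 ± 0.04 in AT0174-treated cells. The inhibitory kinase BCKDK exceeded BCKDHA by 0.58 ± 0.08, 0.52 ± 0.05 and 0.62 ± 0.03. PCCA stood below PCCB, its partner in propionyl-CoA carboxylase, by -3.03 ± 0.11, -2.91 ± 0.25 and -3.07 ± 0.13, and MCCC1 below MCCC2 by -0.94 ± 0.03, -1.001 ± 0.06 and -1.09 ± 0.11. The cytosolic GOT1 was below the mitochondrial GOT2 by -1.42 ± 0.12, -1.47 ± 0.09 and -1.46 ± 0.05. GLUD1 was above GLS2 by 2.53 ± 0.13, 2.61 ± 0.0015 and 2.57 ± 0.02, and ALDH7A1 above AASS by 6.87 ± 0.37, 6.96 ± 0.09 and 6.86 ± 0.11. The ratio of MCCC1 to MCCC2 moved more on CPM than on TPM, from -1.61 in attached to -1.76 in suspended cells. These ratios are given without a test. The ratio of BCAT1 to BCAT2 could not be formed because BCAT1 was at 0.

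Of the 44 tested members, 16 (36.4%) passed the test in suspended against attached cells, beside 21.2% of all 15528 tested genes. Of these, 11 rose, 25.0% of the members beside 10.4% of all genes, and 5 fell, 11.4% beside 10.8%. The changes were small: those that rose lay between 0.11 and 0.35 on the log2 scale, and those that fell between -0.16 and -0.59. The median log2 fold change was 0.08 over the 44 members and 0.00 over all genes. Groups of libraries did not overlap in CPM for 24 members (54.5%), beside 38.1% of all genes. Without attached replicate 3 the number of members past the test was 10, beside 12.2% of all genes. With counts rebuilt from length-scaled TPM it was 6 of 44 (ACAD8, ALDH7A1, PRODH, GLUD1, SUOX and AHCY), beside 10.9% of all genes, so that the members' share lay near that of all genes. IVD (adjusted p = 0.13), HGD (0.061) and GOT2 (0.053) were among the 10 calls lost with these counts. In bulk RNA, fewer cells that express a gene and less RNA per cell cannot be told apart.

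**Figure D2:**
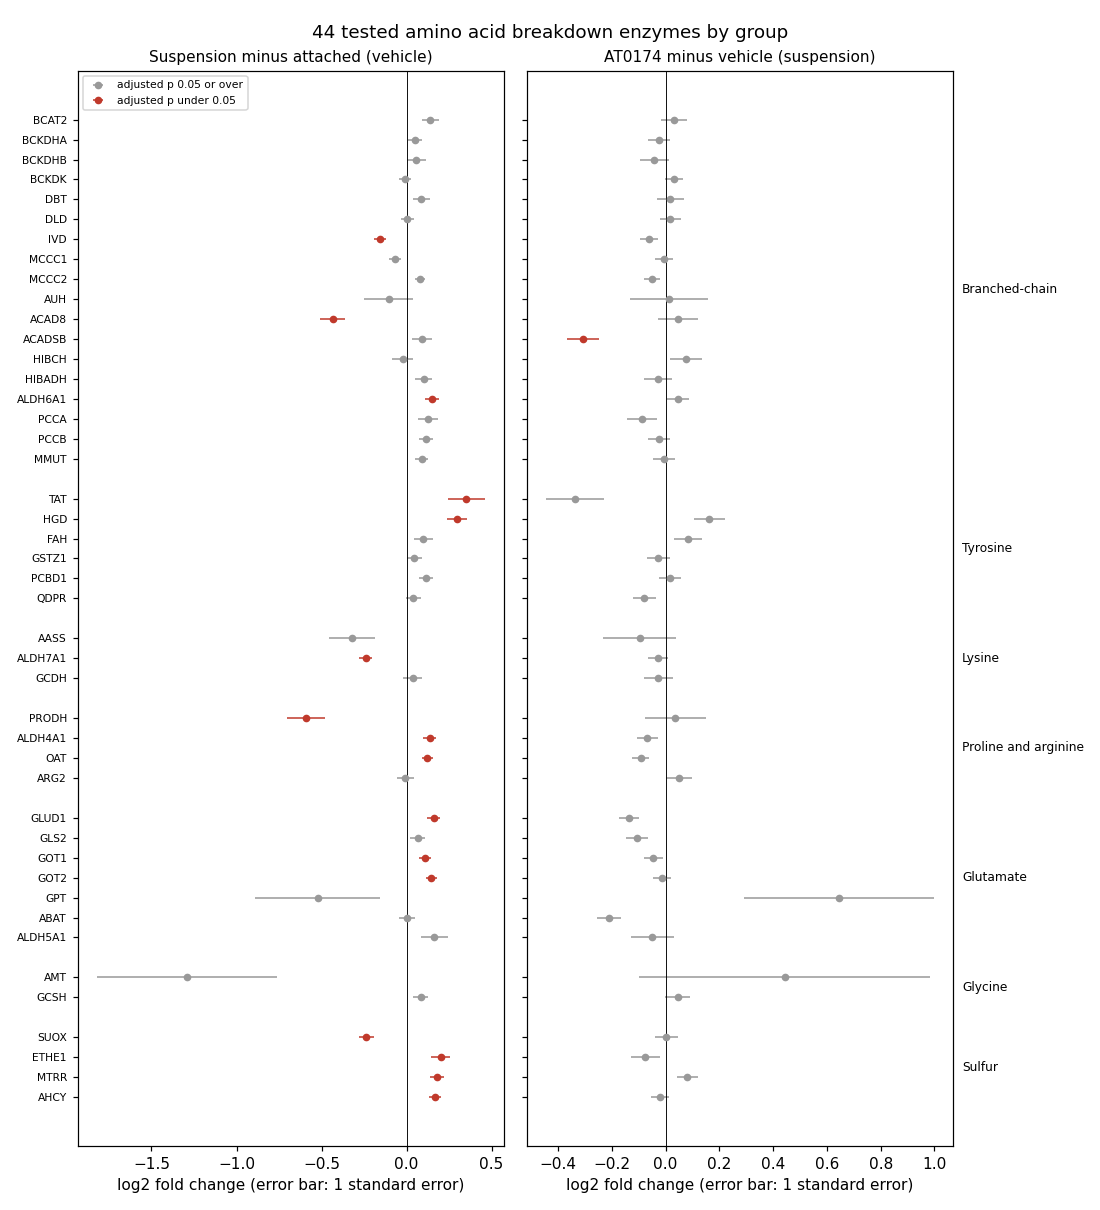
Log2 fold change of each tested enzyme with its standard error, for suspension minus attached (left) and AT0174 minus vehicle (right), by group. On the left 16 points are red (adjusted p under 0.05), of which 11 lie above 0, and on the right ACADSB is the 1 red point.

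By group, all 4 tested sulfur genes passed the test, 3 higher and 1 lower, though only SUOX and AHCY did with length-scaled TPM counts. Over all genes 21.2% passed, 10.4% higher and 10.8% lower. In the proline and arginine group 3 of 4 passed, 2 higher and 1 lower, and in the glutamate group 3 of 7, all higher. In the tyrosine group 2 of 6 passed, both higher, in the lysine group 1 of 3, lower, in the branched-chain group 3 of 18, 1 higher and 2 lower, and in the glycine group 0 of 2. Groups of this size are given as counts only.

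In branched-chain breakdown, none of the 6 tested genes of the steps shared by leucine, valine and isoleucine (BCAT2, BCKDHA, BCKDHB, BCKDK, DBT and DLD) passed the test in edgeR, where 1 had an unadjusted p under 0.05. Their gene-level log2 fold changes ran from -0.01 to 0.14. BCAT2 came closest, at 35.3, 35.6 and 33.9 CPM in attached and 36.2, 41.2 and 38.0 CPM in suspended libraries (log2 fold change 0.14 ± 0.05 SE, adjusted p = 0.068). It passed without suspended replicate 1 (adjusted p = 0.030) and with no filter on low counts (adjusted p = 0.045).

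Among the branch-specific acyl-CoA dehydrogenases 2 fell and 1 did not pass, and the genes were not tested against each other. IVD, the isovaleryl-CoA dehydrogenase of leucine breakdown, was at 102, 105 and 109 CPM in attached and 92.1, 95.03 and 96.5 CPM in suspended libraries. Every suspended library was below every attached one, and IVD fell by 0.16 on the log2 scale (SE 0.034, adjusted p = 0.0078). ACAD8, the isobutyryl-CoA dehydrogenase of valine breakdown, was at 28.8, 27.9 and 32.5 against 20.96, 21.99 and 23.1 CPM, again without overlap, and fell by 0.43 (SE 0.075, adjusted p = 0.0022), while its protein-coding transcripts were at -0.01 (SE 0.084, adjusted p = 0.95). ACADSB, which acts at the matching step of isoleucine breakdown, was at 45.1, 44.9 and 46.8 against 50.6, 43.6 and 51.8 CPM. Its groups overlapped, with a log2 fold change of 0.09 (SE 0.059, adjusted p = 0.30), and suspended replicate 2 was the low library: without it the adjusted p was 0.038. ALDH6A1, the semialdehyde dehydrogenase late in valine breakdown, was at 78.5, 75.2 and 72.4 against 80.8, 86.9 and 82.6 CPM and rose by 0.15 (SE 0.041, adjusted p = 0.024), a call that was lost without attached replicate 2 or 3 or suspended replicate 2 (adjusted p up to 0.097). The remaining leucine and valine enzymes and the propionate enzymes PCCA, PCCB and MMUT did not pass, although all 3 propionate genes had positive log2 fold changes (0.09 to 0.13). PCCB passed without attached replicate 2 (adjusted p = 0.036).

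In the tyrosine group all 6 tested genes had positive log2 fold changes (0.04 to 0.35). HGD, the dioxygenase that opens the ring of homogentisate, was at 19.9, 18.6 and 17.5 CPM in attached and 22.04, 22.3 and 24.5 CPM in suspended libraries, without overlap, and rose by 0.30 (SE 0.059, adjusted p = 0.0045). TAT, the aminotransferase of the entry step, was at 2.88, 3.04 and 3.04 against 3.98, 3.79 and 3.66 CPM and rose by 0.35 (SE 0.11, adjusted p = 0.039). Over the alternatives run, this call was the most often lost of the 16: it was lost without any 1 of the 6 libraries (adjusted p up to 0.10), and an antisense gene, TAT-AS1, overlaps TAT on the other strand. FAH, GSTZ1, PCBD1 and QDPR did not pass.

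In the lysine group ALDH7A1, which oxidises the semialdehyde formed from lysine, was at 154, 158 and 148 CPM in attached and 136, 129 and 125 CPM in suspended libraries. All suspended libraries were lower, and ALDH7A1 fell by 0.24 (SE 0.038, adjusted p = 0.0013, the smallest of the 44). AASS, which acts before it, was at 3.92, 4.81 and 5.90 against 4.06, 3.70 and 3.98 CPM, with overlapping groups and a log2 fold change of -0.32 (SE 0.14, adjusted p = 0.12). Without attached replicate 1, the lowest of its group, AASS passed (-0.45, adjusted p = 0.027). GCDH, the glutaryl-CoA dehydrogenase, had a log2 fold change of 0.04.

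In the proline and arginine group 1 gene fell and 2 rose at gene level. PRODH was at 317, 322 and 403 CPM in attached and 215, 227 and 249 CPM in suspended libraries, without overlap, and fell by 0.59 (SE 0.11, adjusted p = 0.0041), the largest fall among the members that passed, although its protein-coding transcripts, which hold few of its counts, were at 0.10 (SE 0.12, adjusted p = 0.60). ALDH4A1 was at 429, 410 and 398 against 439, 466 and 455 CPM and rose by 0.14 (SE 0.037, adjusted p = 0.022). OAT, which makes the same semialdehyde from ornithine, was at 90.2, 89.2 and 86.7 against 95.7, 95.6 and 98.3 CPM and rose by 0.12 (SE 0.032, adjusted p = 0.019). ARG2, the mitochondrial arginase, had a log2 fold change of -0.01. Leaving out attached replicate 2 or 3 or suspended replicate 2 or 3 ended the call of ALDH4A1 (adjusted p up to 0.084), and leaving out replicate 3 of either group ended that of OAT (adjusted p up to 0.069).

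In the glutamate group the mitochondrial enzymes GLUD1 and GOT2 and the cytosolic GOT1 rose. GLUD1, glutamate dehydrogenase, was at 194, 190 and 177 CPM in attached and 206, 215 and 205 CPM in suspended libraries and rose by 0.16 (SE 0.037, adjusted p = 0.010). GOT2 was at 221, 224 and 213 against 240, 245 and 242 CPM and rose by 0.15 (SE 0.033, adjusted p = 0.0089). GOT1 was at 66.9, 69.9 and 67.8 against 75.1, 73.9 and 71.3 CPM and rose by 0.11 (SE 0.034, adjusted p = 0.043). None of these groups overlapped, but the GOT1 call was lost without attached replicate 1 or 3 or suspended replicate 1 or 2 (adjusted p up to 0.13). It was also lost in DESeq2, without a filter, in the 6 libraries alone, with a replicate block and with length-scaled TPM counts (adjusted p up to 0.215). The glutaminase GLS2, the GABA transaminase ABAT and the succinic semialdehyde dehydrogenase ALDH5A1 did not pass, with log2 fold changes of 0.06, 0.00 and 0.16. ALDH5A1 passed without attached replicate 2 (0.27, adjusted p = 0.017). GPT had a log2 fold change of -0.52 with a standard error of 0.37, from 0.159 to 0.314 CPM in these 6 libraries.

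In the glycine group AMT was at 2.01, 1.99 and 2.99 CPM in attached and 0.801, 0.725 and 1.32 CPM in suspended libraries. Its groups did not overlap and its log2 fold change of -1.29 was the most negative of the 44, but with a standard error of 0.53 it did not pass (adjusted p = 0.10). It passed in a fit of the 6 libraries alone (adjusted p = 0.0076) and with no filter on low counts (adjusted p = 2.0e-06). AMT shares exonic sequence with NICN1 on the same strand, and between 0% and 41.6% of its counts were in protein-coding transcripts. GCSH had a log2 fold change of 0.08.

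In the sulfur group SUOX, which oxidises sulfite to sulfate, was at 38.5, 39.3 and 38.7 CPM in attached and 34.2, 32.6 and 31.98 CPM in suspended libraries and fell by 0.24 (SE 0.044, adjusted p = 0.0033). ETHE1, the persulfide dioxygenase of the mitochondrial sulfide route, was at 20.5, 20.7 and 19.0 against 21.4, 23.8 and 23.9 CPM and rose by 0.20 (SE 0.055, adjusted p = 0.023). MTRR, which reactivates methionine synthase, was at 34.2, 34.6 and 34.1 against 37.5, 40.7 and 38.2 CPM and rose by 0.18 (SE 0.041, adjusted p = 0.0095). AHCY was at 359, 365 and 350 against 399, 411 and 395 CPM and rose by 0.17 (SE 0.034, adjusted p = 0.0057). None of the 4 had overlapping groups. ETHE1 was lost without attached replicate 3 or suspended replicate 2 or 3 (adjusted p up to 0.090). MTRR changed sign, to -0.16, when counts were rebuilt from length-scaled TPM, and it shares exonic sequence with FASTKD3 on the other strand. Of the other members that passed, ALDH6A1, GLUD1, GOT2 and ETHE1 also share exonic sequence with a gene on the other strand. AHCY shares it with a long noncoding gene on the same strand. BCKDHA, GLS2 and GCSH, which did not pass, share it with a coding gene on the same strand. The part of these overlaps in the counts was not tested.

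**Figure D3:**
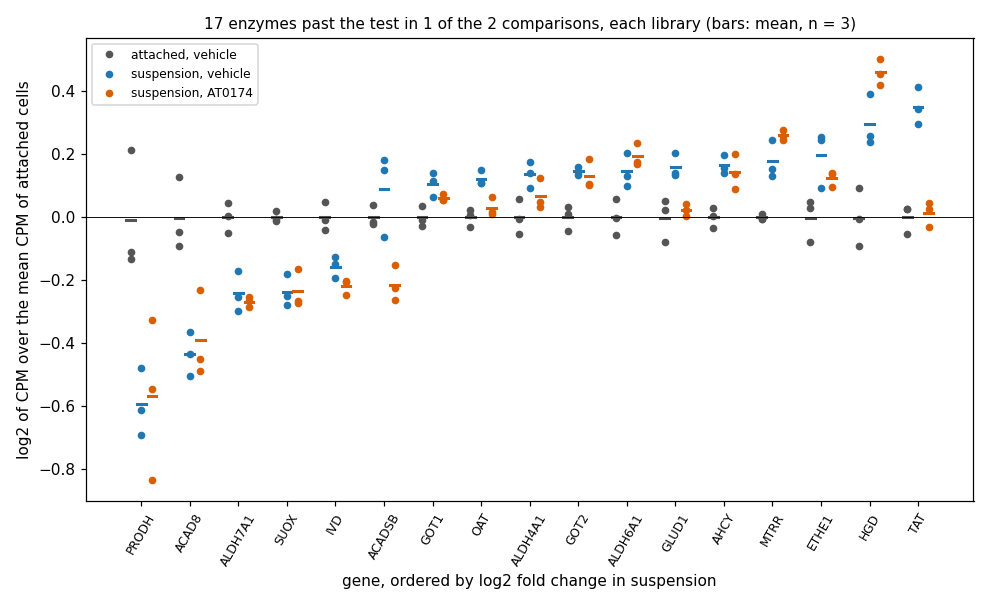
Log2 of each library's CPM over the mean of attached cells for the 17 enzymes past the test in 1 comparison, with a bar at each mean (n = 3). PRODH and ACAD8 are lowest in suspension, and HGD and TAT highest. With AT0174 only ACADSB passed the test.

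Gene counts add all transcript models of a gene, and some models keep an intron and carry no reading frame in the annotation. Of the 44 tested members, 31 had over 80% of their counts in protein-coding models in every library, and 6 had under 50% in at least 1 library: DLD, ACAD8, AASS, PRODH, GPT and AMT. The shares rest on Salmon's division of reads among overlapping models and are estimates. Retained-intron models held 4.87% to 5.497% of all counts in attached, 4.33% to 4.35% in suspended and 4.07% to 4.78% in AT0174 libraries, so this class as a whole was lower in suspension.

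PRODH (chr22:18912777-18936553, minus strand, GRCh38) had 96.0% to 98.1% of its counts in retained-intron models, led by PRODH-206, PRODH-201, PRODH-213, PRODH-211 and PRODH-212, which keep all or part of introns 4, 5, 7, 8 and 9. The retained-intron counts were at 309.6, 311 and 395 CPM in attached and 206, 218 and 239 CPM in suspended libraries, without overlap, with a log2 fold change of -0.61 (SE 0.13, adjusted p = 0.036). The protein-coding counts were at 7.11, 10.3 and 7.62 against 8.60, 8.75 and 9.47 CPM, with overlapping groups and a log2 fold change of 0.10 (SE 0.12, adjusted p = 0.60). The counts by which PRODH fell at gene level were thus in models that keep introns. PRODH also shares exonic sequence with DGCR6 and a long noncoding gene (ENSG00000284294), both on the other strand, and whether the counting used strand was not stated.

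ACAD8 (chr11:134253548-134265855, plus strand) split more evenly. Protein-coding models held 35.2% to 42.8% of its counts in attached, 50.4% to 52.2% in suspended and 45.7% to 60.8% in AT0174 libraries. Its protein-coding counts were at 10.7, 12.0 and 11.4 CPM in attached and 10.7, 11.5 and 11.6 CPM in suspended libraries (log2 fold change -0.01, SE 0.084, adjusted p = 0.95). Its retained-intron counts were at 15.5, 14.3 and 17.8 against 8.84, 8.59 and 9.15 CPM and fell by 0.84 (SE 0.20, adjusted p = 0.040). The leading model of that class, ACAD8-215, keeps intron 6 whole (chr11:134259746-134261043, 1298 bases).

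Splice sites are shown for the intron that ACAD8-215 keeps whole and for those that PRODH-206 and PRODH-201 keep whole, since these models hold the most counts of their class in each gene and leave the sites uncut. Each line gives 26 bases of GRCh38, 5′ to 3′ on the strand of the gene, with the GT that opens or the AG that closes the intron in capitals.
ACAD8 intron 6 donor (chr11:134259740-134259765): aaaaagGTgagtggctgttggacagg
ACAD8 intron 6 acceptor (chr11:134261024-134261049): cagtccctgatttttgccAGgtgggg
PRODH intron 5 donor (chr22:18923095-18923120): tttctgGTaagtgctagaaccttcca
PRODH intron 5 acceptor (chr22:18922928-18922953): attcaggcctgcgtttgcAGctgcag
PRODH intron 8 donor (chr22:18921322-18921347): gcacagGTaacacctccgctcctcag
PRODH intron 8 acceptor (chr22:18919793-18919818): accgcgtgttgcacccccAGacagga
All 6 carry the usual GT or AG pair. PRODH intron 5 is 181 bases long and intron 8 is 1543.

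**Figure D4:**
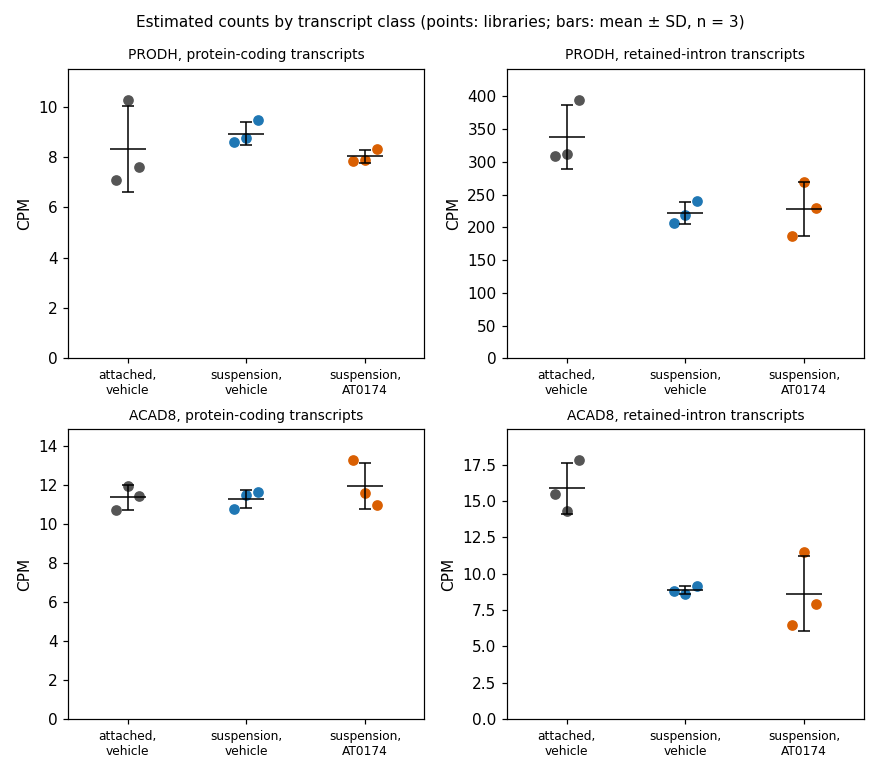
CPM of protein-coding and retained-intron transcripts of PRODH and ACAD8 in each library, with mean ± SD (n = 3). The retained-intron counts of both genes lie lower in all 3 suspended vehicle libraries than in all 3 attached ones, while the protein-coding counts overlap.

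The log2 ratio of retained-intron to protein-coding counts was 5.35 ± 0.40 in attached and 4.63 ± 0.04 in suspended cells for PRODH, and 0.48 ± 0.19 and -0.35 ± 0.07 for ACAD8. The differences were -0.72 and -0.83. An exact permutation test (two-sided) gave p = 0.1 for each, the smallest that 3 against 3 allows. That value lies above the threshold used here, and both genes were singled out after their counts were seen. The permutation therefore cannot decide whether the ratios differ, and no conclusion is drawn from it. Over all genes with retained-intron models, 6.78% of 5277 passed the test and 6.42% passed with a lower level in suspension, and the median log2 fold change was -0.36, so the values of PRODH and ACAD8 lie on the same side as this class. Of 24 members tested in the class, PRODH and ACAD8 were the 2 (8.33%) that passed. When the class was scaled by its own TMM factors, which removes a shift common to the class, PRODH was at -0.24 (adjusted p = 0.12) and ACAD8 at -0.47 (adjusted p = 0.093), and neither passed.

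Counting protein-coding models only, 10 of 43 tested members (23.3%) passed, beside 18.3% of all 12270 genes. IVD (-0.15), ALDH7A1 (-0.24) and SUOX (-0.25) fell as before, and HGD (0.33), ALDH4A1 (0.14), OAT (0.13), GOT1 (0.11), GOT2 (0.14), AHCY (0.16) and MCCC2 (0.18) rose. Over all genes of this class the median log2 fold change was 0.03, and 57.4% of values were positive. With the class scaled by its own TMM factors GOT1 did not pass, and 9 of 43 members did, beside 16.7% of all genes. MCCC2, the partner of MCCC1, had not passed at gene level (0.08, SE 0.030, adjusted p = 0.074). ALDH6A1, TAT, GLUD1, ETHE1 and MTRR kept log2 fold changes of 0.12 to 0.37 but no longer passed. DLD, the dehydrogenase shared by several mitochondrial complexes, had only 19.0% to 36.5% of its counts in protein-coding models.

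A further 67 genes of these pathways, which include enzymes of synthesis as well as breakdown, gave 49 tested genes, of which 8 (16.3%) passed in suspension beside 21.2% of all genes. Of these 8, 6 rose and 2 fell, and the median log2 fold change was 0.04. SQOR, the mitochondrial sulfide oxidase upstream of ETHE1, was at 65.9 ± 2.25 CPM in attached and 79.96 ± 3.25 in suspended cells and rose by 0.28 (SE 0.042, adjusted p = 0.0010). PYCR3, a pyrroline-5-carboxylate reductase of proline synthesis, was at 28.6 ± 1.86 and 35.8 ± 0.404 CPM and rose by 0.33 (SE 0.053, adjusted p = 0.0016). CBS, the entry enzyme of transsulfuration, was at 290.4 ± 24.01 and 235 ± 3.76 CPM and fell by 0.31 (SE 0.068, adjusted p = 0.0080), but a near-identical copy of CBS in the GRCh38 reference sequence can share its reads. ECHS1, HADHB, PYCR1 and ALDH18A1 also rose and CSAD fell.

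With the inhibitor 1 of 44 members (2.27%) passed the test, beside 0.779% of all genes. ACADSB, the dehydrogenase of isoleucine breakdown, was at 50.6, 43.6 and 51.8 CPM in suspended vehicle libraries and 39.0, 38.0 and 41.0 CPM with AT0174. All treated libraries were lower than all vehicle libraries, and ACADSB fell by 0.31 (SE 0.059, adjusted p = 0.033). The call was kept without vehicle replicate 2 and lost without any 1 of the other 5 libraries (adjusted p up to 0.14). It was also lost with length-scaled TPM counts, in a fit of the 6 libraries alone (adjusted p = 0.30 and 0.065) and with protein-coding models only (log2 fold change -0.30, adjusted p = 0.080).

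ABAT, which removes the amino group of GABA, was at 44.3, 43.2 and 44.8 CPM with vehicle and 37.7, 36.3 and 40.3 CPM with AT0174, without overlap. Its log2 fold change of -0.21 (SE 0.046) did not pass (adjusted p = 0.062), but it passed without AT0174 replicate 3 (adjusted p = 0.037), and in 4 other fits that kept all libraries (adjusted p from 0.0042 to 0.049). TAT was at 3.98, 3.79 and 3.66 against 3.04, 3.08 and 2.92 CPM, also without overlap, with a log2 fold change of -0.34 (SE 0.11, adjusted p = 0.28). GLUD1 was at 206, 215 and 205 against 193, 190 and 188 CPM (log2 fold change -0.14, SE 0.037, adjusted p = 0.16), and passed in DESeq2 (adjusted p = 0.034) and with no filter on low counts (adjusted p = 0.04996). HGD was the member of the tyrosine group with the highest positive value, at 22.04, 22.3 and 24.5 against 26.5, 25.6 and 25.0 CPM (log2 fold change 0.16, SE 0.057, adjusted p = 0.34). TAT and HGD, the entry enzyme and the ring-opening enzyme of one route, thus had values of opposite sign, neither past the test.

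Over the 44 members the median log2 fold change with AT0174 was -0.02, and 26 members had negative values. Vehicle and AT0174 libraries did not overlap for 14 members (31.8%), beside 15.4% of all genes, 10 of them lower with the inhibitor. Of the 5 members that fell in suspension, ACAD8 (0.05, SE 0.075), ALDH7A1 (-0.03, SE 0.038) and SUOX (0.00, SE 0.044) had values near 0 with AT0174. PRODH was at 0.04 with a wider standard error of 0.11. IVD was at -0.06 (SE 0.034, adjusted p = 0.65), with all treated libraries below all vehicle libraries. AT0174 replicate 1 had the lowest PRODH level of the 9 libraries (195 CPM) and replicate 2 stood higher (277 CPM), in the order of their retained-intron shares (4.07% and 4.78%), and the part of that share in the values was not tested. GPT and AMT had log2 fold changes of 0.64 and 0.44 with standard errors of 0.35 and 0.54. With protein-coding models only, 0 of 43 members passed in edgeR, 5 having an unadjusted p under 0.05, beside 0.644% of all genes. None of the 49 other pathway genes passed in edgeR (8 with an unadjusted p under 0.05). Among them HMGCS1 had an adjusted p of 0.062 and AHCYL1 of 0.088, with log2 fold changes of 0.19 and 0.14.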

How the data were processed

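RNA was sequenced in 3 libraries for each of 3 groups. The submitters' notes name Cutadapt 3.4, Trim Galore 0.6.7, STAR 2.7.9a, Salmon 1.10.1 and GRCh38. The authors deposited estimated counts, unnormalized, summed by gene, and for each transcript estimated counts and TPM, the latter divided by effective length and scaled to a fixed total by Salmon. The library kit is named differently in the labels and in the study's methods, and strand-specific counting was not stated.

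Estimated counts were rounded and 15528 genes kept by filterByExpr in edgeR 4.0.16 (R 4.3.3). All 9 libraries, scaled by TMM, entered 1 quasi-likelihood fit with the condition as term. The contrasts were suspension against attached and AT0174 against vehicle in suspension. A gene passed the test when its p, adjusted by Benjamini-Hochberg over all tested genes, was under 0.05. Standard errors are the log2 fold change over the square root of F. Other settings tried were DESeq2 1.42.0, limma-voom (limma 3.58.1), other scalings and filters, length-scaled TPM, pseudogene copies, replicate blocks and leaving out libraries. Transcript classes came from GENCODE annotation, matched for 636 of 638 member transcripts and 234583 of 236920 in all, and class counts were scaled by the gene-level library sizes. Fits by class were chosen after seeing the data. Their scaling was chosen after the fit with each class's own TMM factors had been seen. On data simulated for the suspension comparison, 40.5% of genes changed 1.2-fold and 63.5% of genes changed 1.5-fold were recovered among 15528 genes, with 11.0% and 6.62% of calls unchanged genes. For AT0174 these were 40.5% and 65.5%, with 6.90% and 3.68%.

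The 48 members and the lists were chosen with earlier results of these data known. Every member past the test was named with its libraries, every untested member with its counts, and the highest and lowest TPM of each group. In the further pathway list, the 3 smallest adjusted p of each contrast were named with values; other genes that passed were named after their values were seen. Some items are not reported here. No protein sequences were used here.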

Additional observations from a re-analysis of the deposited data

How the results depend on the processing

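Of the 16 members past the test in suspension, 16 remained with DESeq2 size factors in edgeR, limma-voom, a minimum of 10 counts or pseudogene copies added, and 14 remained in DESeq2, without a filter and in the 6 libraries alone. In these fits 12.8% (no filter) to 24.6% (minimum of 10 counts) of all genes passed. The count was 6 with length-scaled TPM counts, where 10.9% of all genes passed, and 9 at a threshold of 0.01, where 9.05% did. With protein-coding transcripts only, 10 members passed, or 9 where these were scaled by their own TMM factors (18.3% and 16.7% of all genes). Both counts include MCCC2, so that 9 and 8 of the 16 remained. Leaving out 1 library gave 10 to 15 members, beside 12.2% to 17% of all genes, and 10 to 14 of the 16 remained. The sign of 2 members that passed turned: MTRR was at -0.16 with length-scaled TPM counts, and PRODH at 0.10 with protein-coding transcripts, or 0.075 with their own TMM factors. The retained-intron calls of PRODH and ACAD8 were lost when that class was scaled by its own TMM factors. The cause of the other changes was not tested.

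With AT0174, the count of 1 became 3 in DESeq2 and 3 without a filter (ACADSB, GLUD1 and ABAT in both), and 2 with a minimum of 10 counts. In these fits 1.54%, 1.71% and 0.997% of all genes passed. It was 0 in the 6 libraries alone, with length-scaled TPM counts, at a threshold of 0.01 and with protein-coding transcripts under either scaling. In those fits 0.223% to 0.821% of all genes passed. Leaving out 1 library gave 0 to 1, beside 0.398% to 0.544% of all genes.

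The labels give the groups shared replicate numbers but no shared batch, and same-numbered libraries deviated from their group means with correlations of -0.11 to 0.11, not every library correlating best with its own number. With the replicate number as a block, 14 members passed in suspension and 2 with AT0174, beside 20.9% and 0.94% of all genes. At 3 libraries a group, fewer than 41% of 1.2-fold changes were recovered in simulation, where 200 of 15528 genes drawn from all levels changed. In the suspension data 21.2% of genes passed, and GOT1 passed at 1.08-fold, so this rate does not give the recovery among the members.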

Other observations

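ALDH7A1-205, an ALDH7A1 transcript annotated for nonsense-mediated decay, had 213.6, 112.2 and 197.3 estimated counts in attached, 45.6, 152.1 and 269.8 in suspended and 0 in each of the 3 AT0174 libraries. It was singled out after its values were seen. A 0 in an estimate of overlapping transcripts can come from how reads are divided, and the difference was not tested. The protein-coding counts of ALDH7A1 had a log2 fold change of 0.00 with AT0174 (adjusted p = 0.99).

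The counts of DLD lie mostly outside protein-coding models. Its protein-coding counts were at 16.6, 11.9 and 10.6 CPM in attached, 14.2, 20.8 and 20.8 in suspended and 18.1, 14.1 and 15.8 in AT0174 libraries. In suspension they had a log2 fold change of 0.52 (SE 0.18, adjusted p = 0.067), with overlapping groups, which did not pass. At gene level the log2 fold change of DLD was 0.00. ALDH5A1 had 335 protein-coding counts in suspended replicate 1 against 733 and 677 in the others of its group.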
